A study of Mus musculus with 2 samples.

Results

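Creatine kinases, adenylate kinases and AMP deaminases keep the ATP supply of heart muscle in balance, and 9 of their genes were followed among 55536 annotated mouse genes. They were taken by name: Ckm, Ckb, Ckmt1 and Ckmt2 (creatine kinases), Ak1, Ak3 and Ak4 (adenylate kinases), and Ampd1 and Ampd3 (AMP deaminases). Total RNA of whole heart had been sequenced from 2 female B6CASTF1/J mice, first-generation hybrids of the C57BL/6J and CAST/EiJ strains, at an age of 36 days. The animals are numbered 4 (replicate 2) and 3 (replicate 1), libraries started from 300 ng of RNA and contain ERCC spike-in RNAs, and no treatment is given. The libraries each have their own biosample but carry one donor identifier, and they form 1 group with no other group beside it.

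Creatine kinases move a phosphate group between ATP and creatine. In heart muscle the mitochondrial form makes phosphocreatine beside the ADP/ATP exchanger, and the cytosolic muscle form turns it back into ATP at the myofibrils and calcium pumps. Adenylate kinases convert a pair of ADP molecules into ATP and AMP, and AMP deaminases remove AMP as IMP, so both act on the products of ATP use. CKM and CKB proteins of the cytosol form dimers, while the mitochondrial forms assemble into octamers.

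The libraries held 38332179 expected counts in replicate 2 and 39053339 in replicate 1. An expected count is an estimated number of reads, and TPM (scaled transcript abundance) divides it by transcript length so that levels of different genes can be set side by side. All 6 cardiomyocyte markers were detected, with sums of 27957 TPM in replicate 2 and 28210 TPM in replicate 1, and skeletal muscle markers summed to 1.36 and 2.27 TPM, with Myh4 listed at 0. In whole tissue, fewer cells of a type and less RNA per cell cannot be told apart. Levels below are means ± SD over n = 2, from the authors' first quantification unless the second, another estimate from the same reads, is named.

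Within the family, the creatine kinase genes fell into a cytosolic and a mitochondrial pair by coding sequence. Taking the longest complete coding sequence of each gene, Ckm and Ckb were identical at 75.9% of 1143 aligned coding bases, Ckmt2 and Ckmt1 at 71.1% of 1254, and the 4 pairings between cytosolic and mitochondrial genes at 62.5% to 65.4%. The stretch of 60 bases most alike in all 4 genes had 44 columns in common. It is shown to compare the 4 genes base by base, with capitals for bases that differ from Ckm. The bases were read from GENCODE M21 transcripts (5′ to 3′, on the coding strand).
Ckm: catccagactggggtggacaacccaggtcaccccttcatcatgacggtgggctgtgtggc
Ckb: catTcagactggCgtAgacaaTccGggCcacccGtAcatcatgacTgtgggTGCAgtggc
Ckmt2: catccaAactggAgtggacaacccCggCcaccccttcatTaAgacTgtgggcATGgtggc
Ckmt1: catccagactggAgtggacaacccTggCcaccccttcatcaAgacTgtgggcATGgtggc
The bases lie on mm10 between chr7:19414305-19414930 for Ckm (plus strand) and chr12:111671546-111671791 for Ckb (minus strand), each across an intron. They lie at chr13:91863161-91863220 for Ckmt2 (minus strand) and chr2:121359696-121359755 for Ckmt1 (plus strand), each in 1 exon. Ckb differed from Ckm at 13 of the 60 bases, Ckmt2 at 10 and Ckmt1 at 8. In this stretch Ckm was thus closer to the mitochondrial genes than to Ckb, unlike over the whole coding sequence. The longest run shared without a mismatch was 39 bases, between Ckmt2 and Ckmt1.

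Sequence shared with other genes limits how surely reads can be assigned. Counted as distinct 31-base words of the annotated transcripts, 0.482% of the words of Ckm, 0.618% of those of Ckmt2 and 0.339% of those of Ckmt1 occur in another gene. For Ckb the share was 17.5%, of which 504 words are shared with Gm12892, a processed pseudogene on chromosome 4. Gm12892 held 0.41 TPM in replicate 2 and 0.64 TPM in replicate 1, far below Ckb, and the pseudogenes Ckb-ps1 and Ckb-ps2 had 0 counts in both libraries.

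Ckm, the cytosolic muscle creatine kinase (ENSMUSG00000030399.2, chr7:19404776-19422841, plus strand), was the highest of the 9 genes. It had 1429 TPM in replicate 2 and 1576 TPM in replicate 1, a mean of 1503 ± 104 TPM, and held place 22 among 22015 nuclear protein-coding genes. Its nearest neighbours in level were Atp5a1, the alpha subunit of ATP synthase, at 1590 ± 42.2 TPM, and Aldoa, a glycolytic aldolase, at 1419 ± 109 TPM. Within each library Ckm lay between them, with Atp5a1 at 1561 TPM in replicate 2 and 1620 TPM in replicate 1 and Aldoa at 1343 and 1496 TPM. Across the libraries the range of Ckm overlapped with that of each neighbour.

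Ckmt2, the sarcomeric mitochondrial creatine kinase (ENSMUSG00000021622.3, chr13:91853387-91876885, minus strand), came next. It had 855 TPM in replicate 2 and 977 TPM in replicate 1 (916 ± 86.3 TPM, place 43 by mean). By mean it lay beside Mdh1, a malate dehydrogenase, at 919 ± 51.2 TPM and Usmg5, a small protein of the ATP synthase complex, at 916 ± 44.9 TPM. In replicate 2 Ckmt2 lay below both, with Mdh1 at 883 TPM and Usmg5 at 884 TPM. In replicate 1 it lay above both, with Mdh1 at 956 TPM and Usmg5 at 947 TPM. The lower Ckm value lay above the higher Ckmt2 value. Ckm was 1.67 times Ckmt2 in replicate 2 and 1.61 times Ckmt2 in replicate 1 on the TPM scale.

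The other 2 creatine kinases were far lower. Ckb, the brain-type cytosolic form (ENSMUSG00000001270.9, chr12:111669361-111672338, minus strand), had 30.5 TPM in replicate 2 and 34.7 TPM in replicate 1 (32.6 ± 2.93 TPM). Ckmt1, the ubiquitous mitochondrial form (ENSMUSG00000000308.14, chr2:121357714-121363737, plus strand), had 0.53 TPM in replicate 2 and 0.71 TPM in replicate 1, from 19 and 28 counts. Ckm exceeded Ckb 46.8-fold in replicate 2 and 45.4-fold in replicate 1, and Ckmt2 exceeded Ckmt1 1613-fold and 1376-fold. In the second quantification Ckmt2 was 856 times Ckmt1 in replicate 2 and 1328 times in replicate 1, so the order of the libraries turned. The Ckb values rest on 1280 counts in replicate 2 and 1499 in replicate 1.

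As shares of the creatine kinase TPM, Ckm took 61.7% in replicate 2 and 60.9% in replicate 1, and Ckmt2 took 36.9% and 37.7%. Ckb took 1.32% and 1.34%, and Ckmt1 0.0229% and 0.0274%. The 4 genes summed to 2315 TPM in replicate 2 and 2588 TPM in replicate 1, which was 0.625% and 0.624% of all nuclear protein-coding TPM. That total holds the haemoglobin genes, which are among the erythroid markers that summed to 11882 TPM in replicate 2 and 36363 TPM in replicate 1. With TPM rescaled without mitochondrial, haemoglobin and spike-in genes, Ckm had 2266 TPM in replicate 2 and 2471 TPM in replicate 1, and Ckmt2 had 1355 and 1532 TPM, so both stayed lower in replicate 2. Mitochondrial genes took 31.6% of all counts in replicate 2 and 29.0% in replicate 1.

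**Figure D1:**
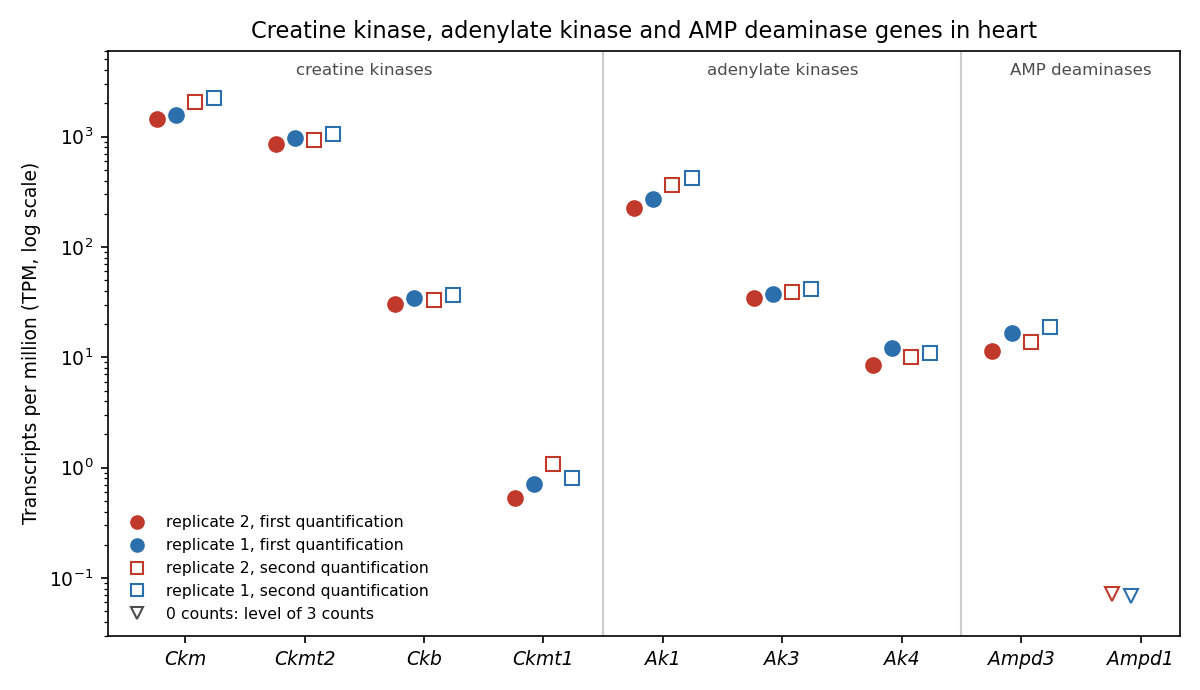
Level of each gene in TPM (log axis) in replicate 2 (red) and replicate 1 (blue), from the first (filled circles) and the second quantification (open squares). Ckm, Ckmt2 and Ak1 are the highest in all 4 estimates, Ckmt1 lies between 0.53 and 1.08 TPM, and triangles mark for Ampd1, with 0 counts, the level of 3 counts.

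Upstream of their RefSeq starts, the creatine kinase genes held different short motifs. RefSeq promoters (GRCm38.p6) were found for 8 of the 9 genes, 17 windows in all, and the 250 bases before each start were searched on both strands. The 120 bases next to the start are printed for the 4 creatine kinases, with capitals for the TATA forms TATAAA and TATATAA, the E-box CANNTG, the CCAAT box and the GC box GGGCGG on either strand, to set the highest and the lowest gene of the family side by side.
Ckm: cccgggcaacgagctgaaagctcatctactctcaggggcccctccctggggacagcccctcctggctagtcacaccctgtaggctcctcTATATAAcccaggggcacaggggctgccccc
Ckmt2: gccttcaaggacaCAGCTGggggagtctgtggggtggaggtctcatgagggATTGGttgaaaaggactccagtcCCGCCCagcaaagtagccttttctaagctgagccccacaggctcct
Ckb: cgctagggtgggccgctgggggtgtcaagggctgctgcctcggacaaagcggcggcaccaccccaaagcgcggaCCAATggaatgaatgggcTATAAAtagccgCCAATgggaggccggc
Ckmt1: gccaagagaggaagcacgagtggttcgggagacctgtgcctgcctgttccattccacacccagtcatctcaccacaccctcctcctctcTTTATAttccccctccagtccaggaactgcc
They lie at chr7:19410974-19411093 (Ckm, plus strand), chr13:91876886-91877005 (Ckmt2, minus strand), chr12:111672339-111672458 (Ckb, minus strand) and chr2:121357656-121357775 (Ckmt1, plus strand, the first of its starts). M21 annotates starts of Ckm and Ckmt1 inside these windows, upstream of the RefSeq starts. Ckm held TATATAA 31 bases before its RefSeq start and a single CANNTG, of the form CAGCTG, 249 bases before that start. The M21 transcript Ckm-201 begins at chr7:19411063, the first base of this TATATAA, and Ckm-203 begins further upstream at chr7:19411025. In these M21 transcripts the TATATAA thus lies within the first exon and not before the start. TATATAA was present in 3.04% of 32851 mouse promoter windows of the same length, CANNTG in 66.2% and CAGCTG, which is one form of CANNTG, in 13%. Ckmt2 held neither TATA form, but 4 CANNTG sites, the nearest of them CAGCTG 107 bases before the start, as well as 1 GGGCGG and 2 CCAAT sites. Ckb held TATAAA 28 bases before its start, overlapping a MEF2 site, with 2 CCAAT sites, and the first start of Ckmt1 held TATAAA on the opposite strand. No window of Ak1, Ak3, Ak4 or Ampd3 held either TATA form. TATAAA was present in 12.4% of windows, the MEF2 site in 2.92%, CCAAT in 33.8% and GGGCGG in 32.7%. These matches describe letters in a window and not bound sites.

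The level of Ckm depended on its transcript models. M21 lists 3 transcripts, and the first quantification gave 62.8% of the Ckm TPM in replicate 2 and 63.2% in replicate 1 to Ckm-201. Ckm-202, a transcript of 671 bases with no coding sequence, took 34.3% and 33.9%, and Ckm-203 took 2.93% and 2.89%. Ckm-201 has a coding length of 936 bases and Ckm-203 one of 1143, the same as Ckb-201. Ckm-201 lacks an exon of 212 bases at chr7:19414119-19414330 that the other 2 transcripts share, and 193 bases of that exon are coding in Ckm-203, beginning with the start codon.

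The coding part of that exon (chr7:19414138-19414330, plus strand, GENCODE M21) is shown because the estimate for Ckm turns on it, with the start codon in capitals.
Ckm-203 exon: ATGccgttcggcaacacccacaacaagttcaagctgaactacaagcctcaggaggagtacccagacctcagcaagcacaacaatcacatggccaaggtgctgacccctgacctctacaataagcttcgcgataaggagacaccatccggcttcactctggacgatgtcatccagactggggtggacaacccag
No transcript in M21 joins this exon to the short 3′ end of Ckm-201, and Ckm-201 has 0 bases that no other Ckm transcript covers. Ckm-201 with this exon added would be 1447 bases long. With all Ckm counts placed on that length, an alternative chosen after seeing the data, Ckm had 1046 TPM in replicate 2 and 1155 TPM in replicate 1. Ckm was then 1.22 times Ckmt2 in replicate 2 and 1.18 times Ckmt2 in replicate 1. Its share of the creatine kinase TPM became 54.2% and 53.3%, and that of Ckmt2 44.2% and 45.1%. The lower Ckm value still lay above the higher Ckmt2 value of 977 TPM.

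The second quantification gave Ckm 2043 TPM in replicate 2 and 2223 TPM in replicate 1, 1.42 times the first on average. Its counts for Ckm were lower, at 41171 in replicate 2 and 46684 in replicate 1 against 42934 and 48946 in the first quantification. The second table subtracts 326 bases in replicate 2 and 329 in replicate 1 from the length of Ckm-201, while the first subtracts 99, and it gave the short Ckm-202 46.8% and 45.3% of the TPM. For Ckmt2, which has a single transcript of 1486 bases, the second mean was 1.08 times the first. The TPM scales also differ as a whole. In the second quantification the 4 creatine kinase genes summed to 3003 TPM in replicate 2 and 3319 TPM in replicate 1. This was 0.617% and 0.613% of nuclear protein-coding TPM, slightly below their shares in the first, so that total was higher in the second. Quotients between the quantifications include this shift.

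**Figure D2:**
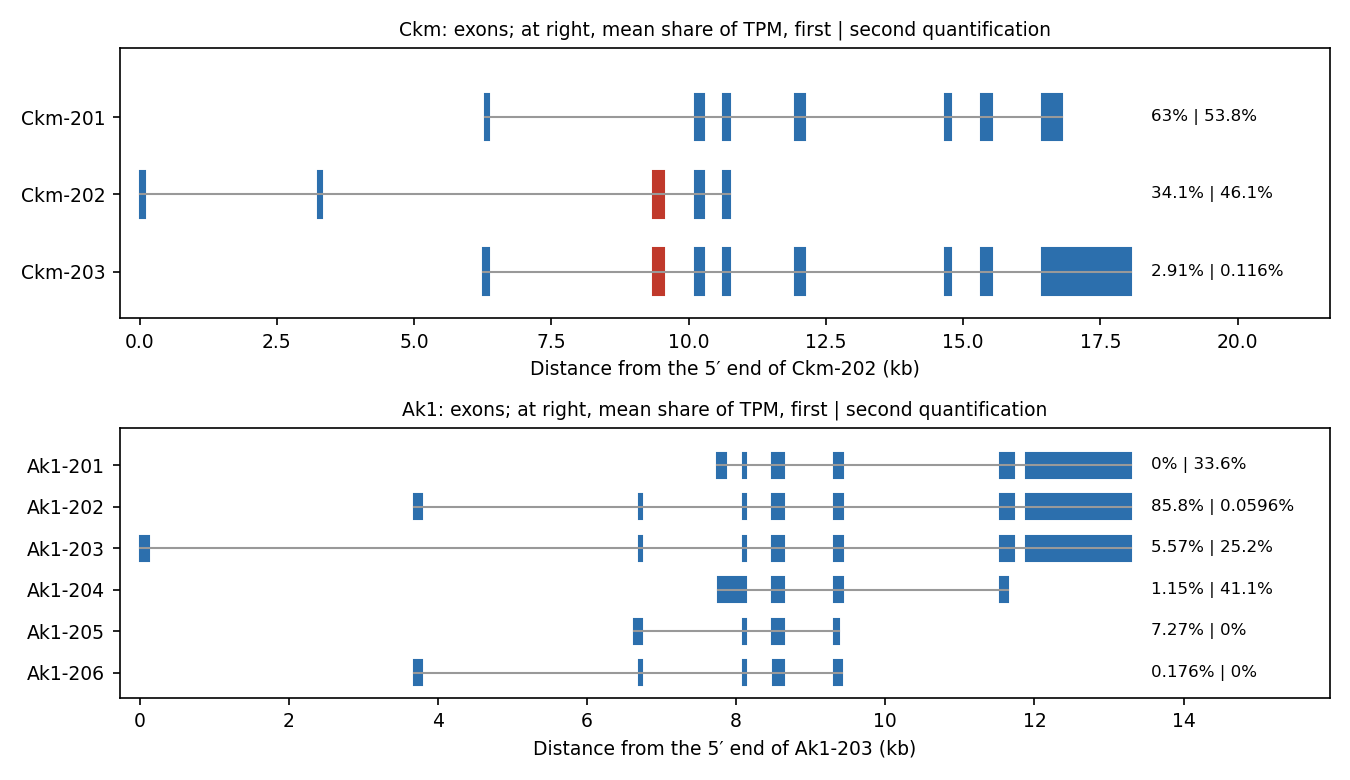
Exons (boxes) of the annotated transcripts of Ckm and Ak1 along the gene, in kb from the 5′ end of the gene, with each mean TPM share at right (first, then second quantification). The exon in red is the one Ckm-201 lacks; for Ak1-202 the mean share is 85.8% by the first and 0.0596% by the second quantification.

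Among the adenylate kinases, Ak1, the main cytosolic enzyme of muscle and red cells (ENSMUSG00000026817.14, chr2:32621758-32635058, plus strand), led. It had 227 TPM in replicate 2 and 273 TPM in replicate 1 (250 ± 32.6 TPM). Ak3, which works with GTP in the mitochondrial matrix (ENSMUSG00000024782.7, chr19:29020833-29047961, minus strand), had 34.6 TPM in replicate 2 and 37.1 TPM in replicate 1 (35.9 ± 1.75 TPM). Ak4, a matrix protein related to Ak3 with low enzyme activity (ENSMUSG00000028527.18, chr4:101419277-101466995, plus strand), had 8.49 TPM in replicate 2 and 12.02 TPM in replicate 1 (10.3 ± 2.50 TPM). The ranges of these 3 genes did not overlap, and Ak1 was 6.57 times Ak3 in replicate 2 and 7.37 times Ak3 in replicate 1.

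Ak1 held 84.1% of the TPM of Ak1, Ak3 and Ak4 in replicate 2 and 84.8% in replicate 1. Set against the other families, Ak3 was above Ckb in both libraries and Ampd3 above Ak4 in both, although the ranges of each pair overlapped across the libraries in the first quantification. In the second they did not overlap. The coding sequences of Ak3 and Ak4 were identical at 60.1% of 667 aligned bases, and Ak1 matched Ak3 at 48.4% and Ak4 at 51.4%.

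Ak3 and Ak4 carry limits of their own. The span of Ak3 overlaps over 5849 bases with Cdc37l1 on the opposite strand, which had 22.9 TPM in replicate 2 and 27.7 TPM in replicate 1, and the strand used in counting is not stated. Of the 31-base words of Ak4, 11.6% occur in the processed pseudogene Ak3l2-ps, which held 2.64 TPM in replicate 2 and 2.42 TPM in replicate 1. No word of Ak3 occurs in another gene. The length that divides the counts of Ak4 was 3172 bases in replicate 2 and 2819 in replicate 1. The TPM of Ak4 therefore differed more between the libraries than its counts, which were 820 in replicate 2 and 1064 in replicate 1.

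The quantifications placed Ak1 at different starts. The first put 89.5% of its TPM in replicate 2 and 82.5% in replicate 1 at the start of Ak1-202 and Ak1-206 (chr2:32625437). The second put 0.117% and 0.00218% there, 25.4% and 25.1% at the first base of Ak1-203 (chr2:32621758), and 74.5% and 74.9% at Ak1-201 and the retained-intron transcript Ak1-204, which begin between chr2:32629504 and chr2:32629521. Ak1-202 has 1 base that no other Ak1 transcript covers and Ak1-201 has 17, against 124 for Ak1-203 and 232 for Ak1-204. No start of Ak1 is therefore named as the main one. The level of the gene was 366 TPM in replicate 2 and 426 TPM in replicate 1 in the second quantification, 1.58 times the first on average. Of that level, Ak1-204, with 752 bases and no coding sequence, held 40.1% in replicate 2 and 42.1% in replicate 1. It held 14.2% and 15.1% of the Ak1 counts of that quantification.

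**Figure D3:**
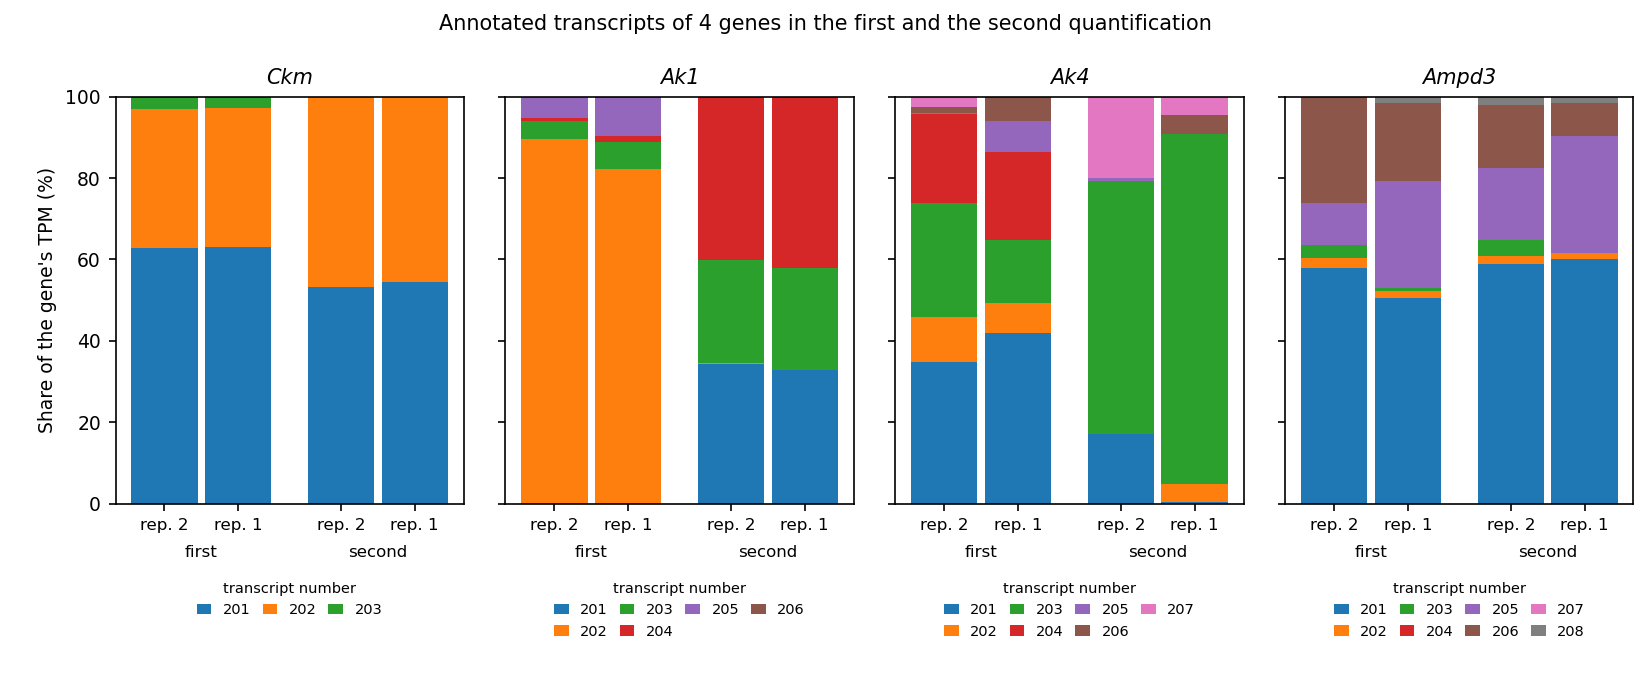
Share of the TPM of Ckm, Ak1, Ak4 and Ampd3 given to each annotated transcript, in percent, in replicate 2 and replicate 1 of the first and second quantification. The bars of Ckm and Ampd3 keep the same leading transcript throughout, while those of Ak1 and Ak4 change with the quantification and, for Ak4-201 in the second, between libraries (17.1% and 0.474%).

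Of the 8 genes with reads, 5 had the same leading transcript in both quantifications, namely Ckm, Ckb, Ckmt2, Ak3 and Ampd3. Ckb-201, from the only coding model of Ckb, held 99.7% of the Ckb TPM in replicate 2 and 98.9% in replicate 1, and Ak3-201 held 92.0% and 91.0% of Ak3. Ak4 was led by Ak4-201 in the first quantification (34.8% and 42.0%) and by Ak4-203 in the second (62.2% and 86.0%). Both encode 669 bases, from starts at chr4:101419277 and chr4:101419289, so the coding length does not depend on this choice.

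Ampd3, the AMP deaminase known from red cells and present in many tissues (ENSMUSG00000005686.17, chr7:110768206-110812405, plus strand), had 11.3 TPM in replicate 2 and 16.8 TPM in replicate 1 (14.0 ± 3.83 TPM). Ampd1, the skeletal muscle form (ENSMUSG00000070385.12, chr3:103074014-103099720, plus strand), had 0 counts in both libraries and in both quantifications. A count of 0 allows up to 3 counts, or 0.0711 TPM in replicate 2 and 0.0689 TPM in replicate 1. Ampd3 was 159.5 times that limit in replicate 2 and 243 times in replicate 1. The deposited TPM intervals of Ampd1, whose confidence level is not given, reached higher than that limit. Their upper ends were 0.379 TPM in replicate 2 and 0.362 TPM in replicate 1. With Ampd2, the widely expressed form at 1.82 and 2.05 TPM, Ampd3 held 86.2% of the AMP deaminase TPM in replicate 2 and 89.1% in replicate 1.

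Ampd3-201, which starts at chr7:110772604, held 58.0% of the Ampd3 TPM in replicate 2 and 50.6% in replicate 1, and 58.8% and 60.1% in the second quantification. Ampd3-206, which starts further upstream at chr7:110768206 and encodes the same length of 2298 bases, held 26.1% in replicate 2 and 19.2% in replicate 1. The incomplete Ampd3-205 held 10.3% in replicate 2 and 26.2% in replicate 1, a larger gap than any other Ampd3 transcript. The length that divides the counts of Ampd3 was 3321 bases in replicate 2 and 2905 in replicate 1. Its TPM therefore differed more between the libraries than its counts, which were 1146 in replicate 2 and 1529 in replicate 1. Ampd3 overlaps Rnf141 on the opposite strand over 11974 bases, and Rnf141 had 13.2 TPM in replicate 2 and 15.2 TPM in replicate 1.

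The AMP deaminase coding sequences of Ampd1 and Ampd3 were identical at 64.2% of 2229 aligned bases, and 0.110% and 1.199% of their 31-base words occur in other genes. Nearly all of the sequence of Ampd1, the gene with 0 counts, is thus its own.

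For Ckmt2, Ckb, Ak3, Ak4 and Ampd3 the means of the second quantification lay closer to the first than for Ckm and Ak1. Because nuclear protein-coding TPM was higher in total in the second quantification, closeness in TPM does not mark the surer estimate. It gave Ckmt2 925 TPM in replicate 2 and 1059 TPM in replicate 1, Ckb 33.0 and 36.3 TPM, and Ak3 39.2 and 41.9 TPM. Ak4 had 10.1 and 10.96 TPM and Ampd3 13.7 and 18.8 TPM by this estimate. In both quantifications these 5 genes and Ckm and Ak1 had the lower TPM in replicate 2. Ckmt1 was the exception, with 1.08 TPM in replicate 2 and 0.798 TPM in replicate 1 in the second quantification, from 22 and 29 counts. Its reads were placed on different models by the 2 methods, with Ckmt1-202 at 78.8% in replicate 2 and 85.7% in replicate 1 of the first and at 0% and 61.8% of the second.

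The lists of partner genes place these levels in their pathway. For creatine supply, the transporter Slc6a8 had 52.3 TPM in replicate 2 and 59.9 TPM in replicate 1. The enzymes of creatine synthesis were lower, with Gatm at 1.57 and 1.26 TPM and Gamt at 3.22 and 3.45 TPM, so Slc6a8 exceeded Gamt 16.2-fold in replicate 2 and 17.4-fold in replicate 1. Slc25a4, the ADP/ATP exchanger of muscle mitochondria, had 1837 TPM in replicate 2 and 1984 TPM in replicate 1, 2.15 and 2.03 times Ckmt2.

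Of 5 further adenylate kinases, 1 reached 1 TPM in both libraries. This was Ak6, which had 21.3 TPM in replicate 2 and 20.8 TPM in replicate 1, but lies within a locus shared with Taf9 on the same strand, so its value is uncertain. Ak5, Ak7, Ak8 and Ak9 lay between 0 and 0.11 TPM.

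For AMP and adenosine handling, 12 of 13 genes reached 1 TPM in both libraries. Adk, which turns adenosine into AMP, was highest at 90.8 TPM in replicate 2 and 95.2 TPM in replicate 1. Adssl1, the muscle form of adenylosuccinate synthase that leads IMP back toward AMP, had 58.2 and 59.4 TPM, above the AMP deaminases, and Adss, the other form, had 3.13 and 3.84 TPM. Ada, which deaminates adenosine, was lowest at 0.23 and 0.26 TPM. Among 7 nucleoside diphosphate kinases, which pass phosphate from ATP to other nucleotides, Nme2 was highest at 376 TPM in replicate 2 and 413 TPM in replicate 1. The read-through gene Gm20390 overlaps Nme1 and Nme2 on the same strand, so the split between them is uncertain.

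**Figure D4:**
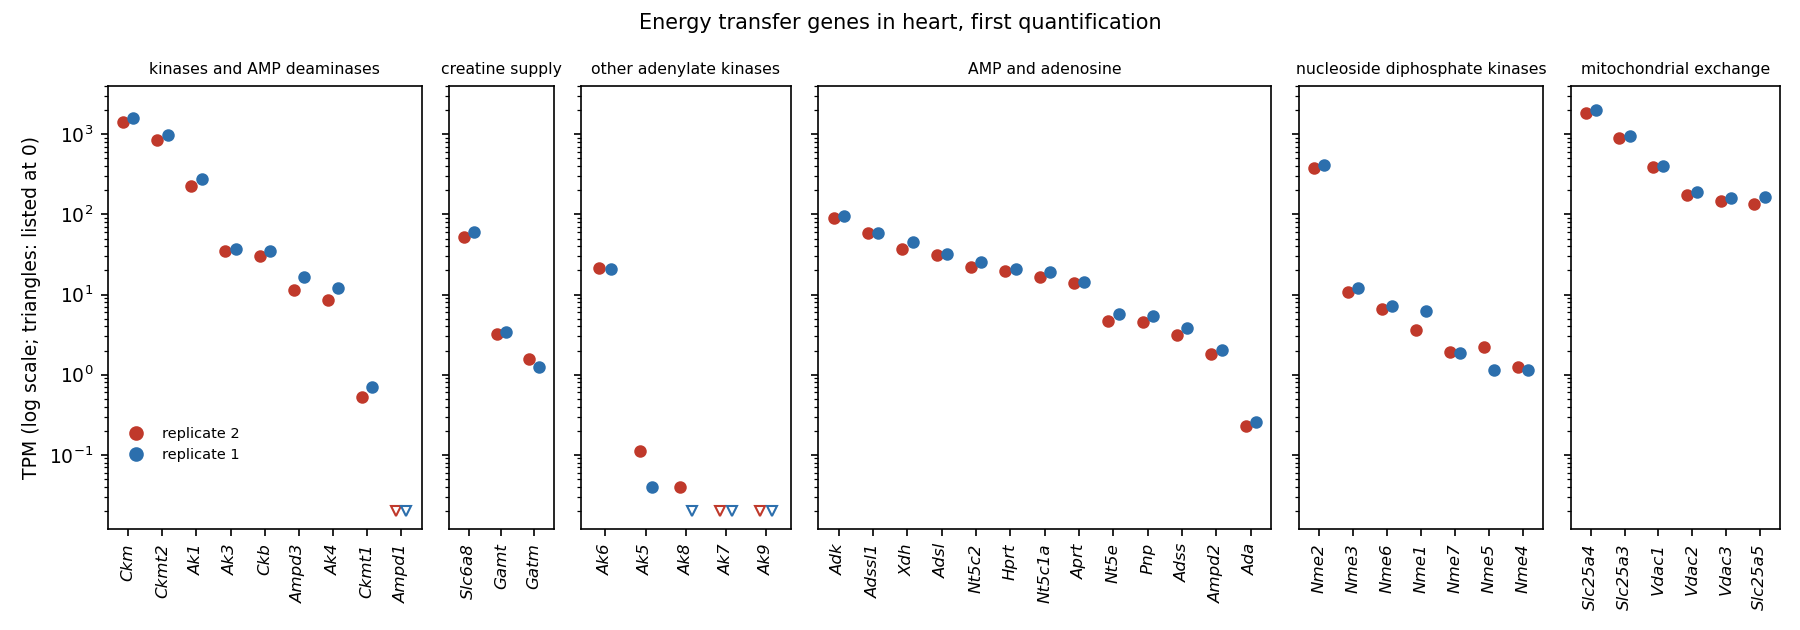
TPM (log axis) of the 9 genes and of 5 lists of partner genes in replicate 2 (red) and replicate 1 (blue), each list in order of mean level, with triangles for values listed at 0. Ckm and Ckmt2 lie in the range of the mitochondrial exchange genes, and Slc6a8 lies above Gamt and Gatm.

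The design allows a comparison of the 2 animals, not of conditions. A log2 ratio of replicate 2 over replicate 1 was taken on expected counts with library sizes from edgeR's TMM method, with an exact 95% interval that covers counting error only. With 1 library per animal there is no test between animals, and a gene was called past the fold at an at least 1.5-fold ratio either way. Of 13745 genes that reached 50 counts in sum, 5.17% were past it, against 0 of the 7 kinase and deaminase genes compared. Ckmt1, with 47 counts in sum, and Ampd1, with 0, were not compared.

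All 7 genes were lower in replicate 2, with a median log2 ratio of -0.14 against -0.00 for all genes, of which 50.03% were lower. On the scale of spike-in counts, which moved the median of all genes by 0.24, and where spike-ins took 0.427% of counts in replicate 2 and 0.532% in replicate 1, 5 of the 7 were higher in replicate 2 instead (Ckm, Ckb, Ckmt2, Ak1 and Ak3). The ratio was -0.31 for Ampd3 (95% interval -0.43 to -0.20), -0.27 for Ak4 (-0.41 to -0.14), -0.14 for Ak1 (-0.18 to -0.11) and -0.14 for Ckmt2 (-0.16 to -0.12). It was -0.13 for Ckb (-0.23 to -0.02), -0.09 for Ckm (-0.11 to -0.07) and -0.03 for Ak3 (-0.11 to 0.05). In the first quantification the interval of Ak3 alone included 0. In the second that of Ckb did so too (-0.22 to 0.0041). Of the 225 nuclear protein-coding genes at or above the level of Ak1, 70.7% were lower in replicate 2, with a median of -0.04.

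Markers of red cells and brown fat were lower in replicate 2 as well, by more than any kinase or deaminase gene compared. Whether these markers and those genes vary together was not tested, because each gene has only 1 ratio. All 6 erythroid markers were past the fold and lower in replicate 2, with sums of 11882 TPM in replicate 2 and 36363 TPM in replicate 1 and a median log2 ratio of -1.58; the highest was Hbb-bs and the lowest Slc4a1, at 2.80 and 7.77 TPM. All 4 brown adipocyte markers were also lower past the fold, with sums of 29.9 TPM in replicate 2 and 97.5 TPM in replicate 1 and a median of -1.99. Red cells are known to hold Ak1 and Ampd3, and brown fat is known to hold Ckb. The part of red cells and brown fat in the lower values of replicate 2 was not tested. Neither list had a gene at 0, and the cardiomyocyte markers had a median of 0.04, with 2 of 6 lower in replicate 2. Of the other marker lists none had a gene past the fold. Their median log2 ratios were 0.09 for fibroblasts (1 of 4 lower), 0.07 for macrophages (1 of 3), 0.05 for Schwann cells and neurons (1 of 2), -0.04 for endothelium (2 of 4) and -0.06 for smooth muscle (4 of 4), and 0.10 for the 1 skeletal muscle marker compared.

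**Figure D5:**
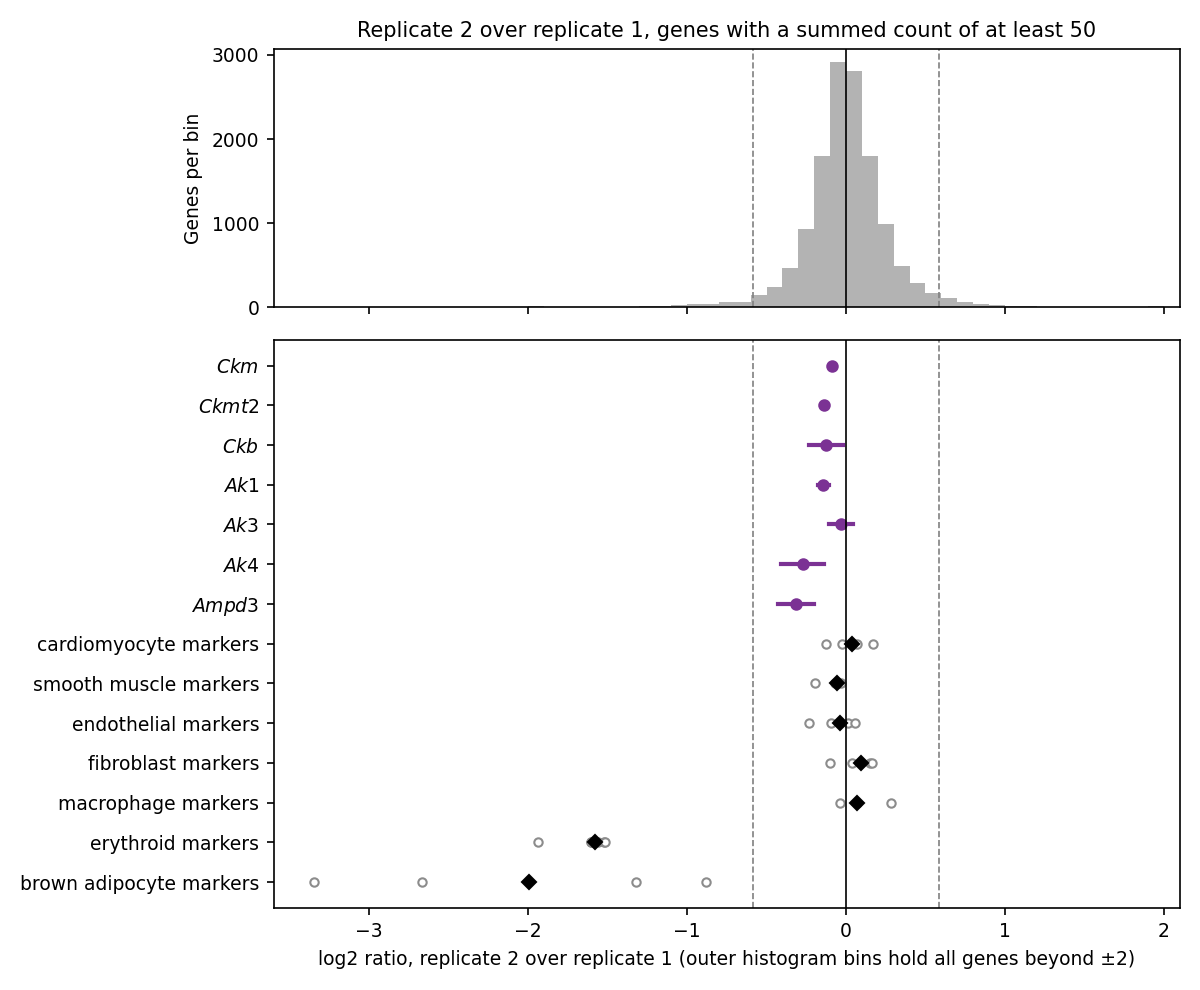
Top, number of genes per bin of the log2 ratio of replicate 2 over replicate 1. Bottom, the ratio of each compared gene (purple, with its 95% counting interval) and of marker genes (open circles, black diamonds for list medians), with dashed lines at 1.5-fold. The 7 genes lie between -0.31 and -0.03, inside the dashed lines, while erythroid and brown adipocyte markers lie left of them.

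Of all compared genes, 5.17% were past the fold in the first quantification. Among the partner lists, 1 of 7 nucleoside diphosphate kinases was past it and no compared gene of the other 4 lists. This was Nme5, a member of the nucleoside diphosphate kinase family, higher in replicate 2 with a log2 ratio of 0.93 (95% interval 0.12 to 1.82) on 36 counts in replicate 2 and 20 in replicate 1. In the second quantification it had 27 and 17 counts, under the minimum of 50 in sum, and its interval included 0 (-0.17 to 1.73). In the list of AMP and adenosine handling 10 of 12 compared genes were lower in replicate 2, none past the fold, with a median of -0.13. For mitochondrial exchange 5 of 6 were lower, with a median of -0.05, and for nucleoside diphosphate kinases 5 of 7, with a median of -0.07. For creatine synthesis and uptake 1 of 3 was lower, with a median of 0.05. Ak6, the only further adenylate kinase compared, was higher at 0.08 (-0.07 to 0.23). In the second quantification the ratio of Ak6 was 0.59 (0.41 to 0.77), just past the fold, on 587 counts in replicate 2 and 416 in replicate 1. Over all compared genes 50.03% were lower.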

How the data were processed

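Per the deposited description files, both libraries were quantified by the authors on mouse build mm10 with GENCODE M21; the sources used here do not give programs, versions or counting strand. One quantification, called the first here, holds deposited expected counts per gene and transcript, not normalized, and the authors' TPM, scaled by effective length. The second holds deposited estimated counts and TPM per transcript, which were summed per gene here. mm10 represents C57BL/6J, and the effect of CAST alleles on the counts was not measured. Symbols in the files and the annotation were equal for 55450 of 55536 genes. Another 97 spike-in rows and 26248 rows named only by a number stayed out of library sizes and gene comparisons.

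Levels are mean TPM ± SD over n = 2, and detection required 1 TPM or more in both libraries. For the ratio of replicate 2 over replicate 1, expected counts were rounded to whole numbers, 0.5 was added, and library sizes came from edgeR 4.0.16 (TMM) in R 4.3.3, with exact (Clopper-Pearson) 95% intervals from scipy 1.17.1. DESeq2 1.42.0 gave the size factors of an alternative. The ratio intervals and the limit of 3 counts describe counting error alone, because PCR copies cannot be told from separate molecules. The libraries differed beyond sampling noise, with a chi-square per degree of freedom of 72.8 over 13745 genes, so they are not copies of one library. This does not show that they came from separate animals, which rests on their labels. Coding sequences came from GENCODE M21 transcripts without stop codons and were aligned with MAFFT 7.526; promoters came from RefSeq (GRCm38.p6).

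The 9 genes and all gene lists were chosen with earlier results of these data known. Named were the 9 genes, genes of the pathway lists, the highest and lowest gene of marker lists described by name, and the genes next to Ckm and Ckmt2 in level. Not every gene of these pathways is reported here. Overlapping genes and pseudogenes were named after their values were seen. Alternatives were the second quantification, posterior mean TPM, TPM rescaled without mitochondrial, haemoglobin and spike-in genes, other library scales, other count minimums, a 2-fold limit and leaving out each replicate.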

Additional observations from a re-analysis of the deposited data

How the results depend on the processing

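With the second quantification, the share of Ckm in the creatine kinase TPM was 67.5% (61.3% in the first), that of Ckmt2 31.4% (37.3%) and that of Ak1 among Ak1, Ak3 and Ak4 88.5% (84.4%). On expected counts, not divided by length, these shares were 53.0%, 45.3% and 79.1%. With Ckm-201 extended by the exon it lacks, chosen after seeing the data, Ckm took 53.7% and Ckmt2 44.7%. Without one replicate, the shares ranged from 60.9% to 61.7% for Ckm, from 36.9% to 37.7% for Ckmt2 and from 84.1% to 84.8% for Ak1. That of Ampd3 against Ampd1 was 100% under every alternative run, which was fixed in advance by the 0 counts of Ampd1. Posterior mean TPM, where Ampd1 is above 0, was not used for this share. The number of kinase and deaminase genes past the fold was 0 on every scale tried, in the second quantification and at 2-fold. Of the 13745 genes compared, 710 were past 1.5-fold, and 1233 on the spike-in scale. With a summed count of at least 10 the number was 2248, and with at least 200 it was 264. These minimums admit other numbers of genes, so the counts cannot be compared as shares. No paired analysis was possible because there is only 1 group. Neither count can be had without one replicate. Posterior mean TPM, which does not start from 0, gave Ckmt1 1.22 TPM and Ampd1 0.19 TPM in replicate 2 and 0.18 TPM in replicate 1. TPM rescaled without mitochondrial, haemoglobin and spike-in genes gave higher means for the 8 genes with reads, with 2369 TPM for Ckm, 1444 TPM for Ckmt2 and 395 TPM for Ak1 against 1503, 916 and 250 TPM. Depth limits Ckmt1, whose level rests on 47 counts in sum, and Ampd1, which had 0 counts. With 2 animals of one genotype, sex and age, no value here carries a test between animals or conditions.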
